A study of Mus musculus with 6 samples.

Results

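The 8 genes described here encode the tachykinin and calcitonin gene-related peptide (CGRP) precursors and their receptors: Tac1, Tac2, Tacr1, Tacr3, Calca, Calcb, Calcrl and Ramp1. They were chosen by name, as 8 of the 54532 Ensembl genes listed for each library, and all 8 were among the 21369 genes tested. The tissue was cervical spinal cord, from 3 C57BL/6 mice with allergic contact dermatitis (ACD) and 3 C57BL/6 controls, and total RNA was sequenced from each. The ACD mice were sensitised on shaved abdominal skin with 20 µl of 1% squaric acid dibutylester (SADBE, a contact allergen) in acetone on 3 days, and after 5 days were challenged with the same dose on the shaved nape on 3 days. The controls had acetone alone on the nape, and the labels leave it unclear whether their abdomen was sensitised too. The strain background is the same in all 6 mice, no allele or transgene is named, and the sources used here give neither age nor sex. Each library is labelled as a biological replicate, and 6 mice are named for the 6 libraries.

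Tachykinins are short amidated neuropeptides that share a C-terminal motif. Tac1 encodes substance P and neurokinin A, and Tac2 encodes neurokinin B, which act on the G protein-coupled receptors Tacr1 and Tacr3. CGRP comes from Calca, whose transcript can also be spliced to encode calcitonin, and from its paralog Calcb, and it acts on a receptor made of Calcrl and its partner Ramp1. In the cord, substance P and CGRP are released by the central endings of sensory neurons whose cell bodies lie outside it in dorsal root ganglia, Tac1 and Tac2 are also transcribed by dorsal horn interneurons, Tacr1 marks projection neurons that carry pain and itch signals, and motor neurons transcribe the CGRP genes.

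For 0 of the 8 genes did the difference between ACD and control cords pass the test against the spread between mice. The precursors Tac1 and Calca had the largest estimated differences, 1.27-fold and 1.27-fold higher in ACD cords, with 95% intervals of 0.941 to 1.73 and 0.842 to 1.90, and both estimates depended on single libraries. The receptor Calcrl had the smallest, at 0.978-fold with an interval of 0.802 to 1.19. Calca and Calcb varied most between control cords, and Calcb most between ACD cords, with 2.25 times as much in the highest ACD cord as in the lowest.

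The peptide-coding stretches are shown because they define the tachykinin family and because Calca and Calcb are close enough for reads to be hard to assign. They were read from GENCODE M21 transcripts (GRCm38, the build named mm10 in the submitters' processing notes), in the sense of the transcript. The tachykinin lines each hold 10 codons, with the codons of the shared motif (phenylalanine, any residue, glycine, leucine, methionine) in capitals.
Tac1, end of substance P, exon 3, plus strand, chr6:7556735-7556764: cccaagcctcagcagTTCTTTGGATTAATG
Tac1, neurokinin A, exon 6 of the transcript read, plus strand, chr6:7559101-7559130: cataaaacagattccTTTGTTGGACTAATG
Tac2, neurokinin B, exon 5, plus strand, chr10:127729116-127729145: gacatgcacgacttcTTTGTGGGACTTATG
Not every annotated Tac1 transcript holds the neurokinin A exon, and the values per gene do not show how the transcripts divided.

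The mature CGRP peptides are each coded by 37 codons in a single exon, and capitals mark the 5 of 111 bases that differ between the genes.
Calca, CGRP, exon 4, minus strand, chr7:114632470-114632580: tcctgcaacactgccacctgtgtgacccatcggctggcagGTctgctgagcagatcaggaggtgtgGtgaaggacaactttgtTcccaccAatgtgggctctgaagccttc
Calcb, CGRP, exon 4, plus strand, chr7:114721994-114722104: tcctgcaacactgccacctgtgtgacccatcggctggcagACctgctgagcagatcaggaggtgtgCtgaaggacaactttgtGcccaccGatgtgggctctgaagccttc
The 2 stretches were 95.5% identical, with 3 of 37 amino acids different. Over the whole transcripts the genes were told apart more easily: 12 words of 50 bases were shared between them, 0.715% of the words of Calca and 0.952% of those of Calcb. A read from the shared CGRP exon could still have been given to either gene or to neither, depending on how reads with several matches were counted, which no source used here states. The CGRP stretch was found in 1 of 7 annotated Calca transcripts. Of these 6 are coding, and only coding transcripts with complete ends were searched. A value for Calca counts calcitonin and CGRP messages together. Tacr1 shared 62 such words (0.965% of its words) with 1065 other genes, and Calcrl 16 (0.325%) with 26 other genes. Tac1, Tac2, Tacr3 and Ramp1 shared no such word with another gene. No exon of the 8 genes overlapped an exon of another annotated gene on either strand.

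The deposited values were FPKM (fragments per kilobase of exon at a common library size), which can be compared between genes. The library-wide read total that made them whole, given here as depth, was 17346315 to 20245576 for the ACD libraries and 16916600 to 18583992 for the controls. Reads recovered per gene summed to 1.04 to 1.07 times that total in ACD and 0.976 to 1.03 times in control libraries. Between 170 and 1862 reads per library lay behind a value of the 8 genes. The Hox genes of cervical levels were present, with a summed 119 to 122 FPKM over a position list of 10 genes in ACD libraries and 102 to 117 in controls, ranges that did not overlap. Of the 8 position genes tested, 0 were called and 0 had an unadjusted p under 0.05, by limma or voom. Hoxc10 and Hoxd10 of lumbar levels were under a mean of 0.1 FPKM. Of 11 primary sensory neuron markers 7 were under that minimum, among them Trpv1, Scn10a, Scn11a and Prdm12, and Mrgprd was at 0 reads in all 6 libraries, so defining transcripts of sensory ganglia were at or near 0. The summed sensory list was 2.45 to 2.83 FPKM in ACD libraries and 2.73 to 3.13 in controls. Sums of some other cell type lists did not overlap between the groups. The summed Schwann cell markers were 319 to 456 FPKM in ACD and 147 to 232 in control libraries. Of these 6 genes 6 were above 0, 5 had an unadjusted p under 0.05 by limma and by voom, 0 were called by limma and 2 by voom. The blood markers were 481 to 772 FPKM in ACD and 100.1 to 389 in control libraries. Of these 5 genes 4 were above 0 and 0 were called by either, with 3 at an unadjusted p under 0.05 by limma and 1 by voom. Over all genes tested 28.6% had groups that did not overlap. An unadjusted p under 0.05 was found for 22.3% of all genes by limma and 23.2% by voom. Astrocyte and microglia sums did not overlap either, at 747 to 827 and 90.4 to 99.4 FPKM in ACD against 551 to 647 and 71.9 to 88.7 in control libraries, with 1 of 6 genes called in each list by limma and by voom. Sums for oligodendrocytes, meningeal fibroblasts, mural cells and inhibitory neurons overlapped. By limma 0 genes were called in each of these 4 lists, with 2, 2, 2 and 1 at an unadjusted p under 0.05, and by voom 0, 0, 1 and 1 were called, with 3, 2, 1 and 1 at an unadjusted p under 0.05. The part of these cell types in the results below was not tested. In tissue of mixed cells, fewer cells of a type and less RNA per cell cannot be told apart. No day of dissection or library preparation is given, so a difference in handling cannot be told apart from ACD.

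Ramp1, Calca and Tac2 were the most abundant of the 8 genes and Tacr1 the least, in both groups. In ACD cords the mean level was 28.8 ± 1.44 FPKM for Ramp1, 25.8 ± 6.74 for Calca, 17.9 ± 4.82 for Tac2, 11.4 ± 4.96 for Calcb, 11.0 ± 2.63 for Tac1, 3.52 ± 0.674 for Tacr3, 2.64 ± 0.270 for Calcrl and 2.30 ± 0.113 for Tacr1 (SD, n = 3). In control cords the order was the same, with 25.1 ± 3.70 FPKM for Ramp1, 20.5 ± 6.18 for Calca, 14.6 ± 1.88 for Tac2, 10.1 ± 2.95 for Calcb, 8.54 ± 1.34 for Tac1, 3.28 ± 0.486 for Tacr3, 2.70 ± 0.291 for Calcrl and 2.12 ± 0.408 for Tacr1 (SD, n = 3). The step between Tac1 and Tacr3 was the 1 place in this order where neighbours had ranges that did not overlap in either group, at 3.13-fold in ACD and 2.60-fold in control cords. Tacr3 and Calcrl did not overlap in ACD cords but did in controls, and every other pair of neighbours overlapped in both. In control cords Ramp1 lay above 91.3% of the tested genes and Calca above 89.1%, while Tacr1 lay above 47.2%.

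**Figure D1:**
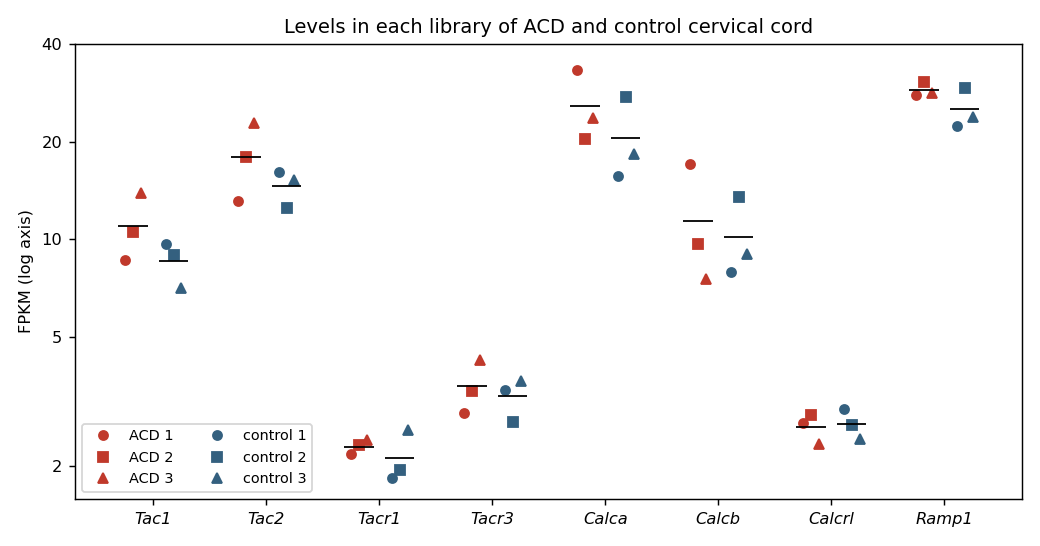
Level of each of the 8 genes in FPKM on a log axis, 1 point per library, with 3 ACD libraries (red) left of 3 control libraries (blue) and black lines at the group means. In every gene the ACD and control points overlap, and Calcb shows the widest scatter, from 7.57 to 17.0 FPKM in ACD libraries.

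Tac1 had 8.65, 10.6 and 13.8 FPKM in ACD cords 1 to 3, against 9.65, 8.91 and 7.06 FPKM in control cords 1 to 3. ACD 2 and 3 were above every control and ACD 1 lay among the controls, so the groups overlapped. On the log2(FPKM + 0.1) scale the difference was 0.35 (SE 0.19, 95% interval -0.09 to 0.79), with an adjusted p of 0.317 by limma. Without ACD 3 it was 0.17 and without control 3 it was 0.22. Tac1 lies on chromosome 6 at 7554879 to 7565834.

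Tac2 had 13.1, 17.9 and 22.8 FPKM in ACD cords 1 to 3, against 16.1, 12.5 and 15.3 FPKM in control cords 1 to 3. The same 2 ACD libraries lay above the controls, and ACD 1 lay between control 2 and control 3. The difference was 0.27 on the log2 scale (SE 0.20, 95% interval -0.20 to 0.73, adjusted p = 0.486 by limma), and it ranged from 0.08 without ACD 3 to 0.47 without ACD 1. Tac2 lies on chromosome 10 at 127724478 to 127731768.

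Tacr1, the substance P receptor, had 2.18, 2.31 and 2.40 FPKM in ACD cords 1 to 3, against 1.83, 1.94 and 2.59 FPKM in control cords 1 to 3. The ACD values were close together, above 2 controls and below the third. The difference was 0.13 on the log2 scale (SE 0.15, 95% interval -0.22 to 0.47, adjusted p = 0.654 by limma). Tacr1 lies on chromosome 6 at 82402334 to 82560104.

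Tacr3, the neurokinin B receptor, had 2.91, 3.40 and 4.24 FPKM in ACD cords 1 to 3, against 3.44, 2.73 and 3.66 FPKM in control cords 1 to 3. Only ACD 3 lay above all 3 controls. The difference was 0.09 on the log2 scale (SE 0.17, 95% interval -0.30 to 0.48, adjusted p = 0.781 by limma), and its sign changed with the scaling. Tacr3 lies on chromosome 3 at 134829007 to 134934579.

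Calca had 33.3, 20.4 and 23.7 FPKM in ACD cords 1 to 3, against 15.7, 27.5 and 18.4 FPKM in control cords 1 to 3. ACD 1 was the highest library and control 2 the next, so each group held a library well above its other 2. The difference was 0.34 on the log2 scale (SE 0.25, 95% interval -0.25 to 0.93, adjusted p = 0.476 by limma), and it ranged from 0.14 without ACD 1 to 0.57 without control 2. Calca lies on chromosome 7 at 114631478 to 114636357.

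Calcb, whose precursor yields the second CGRP peptide, had 17.0, 9.65 and 7.57 FPKM in ACD cords 1 to 3, against 7.95, 13.5 and 8.99 FPKM in control cords 1 to 3. The same 2 libraries as for Calca were the highest, and ACD 3 was the lowest of all 6. The difference was 0.12 on the log2 scale with the largest SE of the 8 genes (0.32, 95% interval -0.65 to 0.89, adjusted p = 0.861 by limma), and without ACD 1 it was -0.21. Calcb lies on chromosome 7 at 114718643 to 114723365.

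Calcrl, the receptor subunit that spans the membrane in several passes, had 2.72, 2.86 and 2.34 FPKM in ACD cords 1 to 3, against 3.00, 2.68 and 2.42 FPKM in control cords 1 to 3. The lowest library of all was ACD 3 and the highest was control 1. The difference was -0.03 on the log2 scale (SE 0.12, 95% interval -0.32 to 0.26, adjusted p = 0.905 by limma). Calcrl lies on chromosome 2 at 84330626 to 84425411. The summed list of 7 endothelial markers, a cell type that transcribes Calcrl, was 49.97 to 81.6 FPKM in ACD and 58.6 to 67.6 in control libraries and overlapped as well. Cldn5 made up much of that sum and was the 1 of 7 markers with an estimate above 0, and the list median was -0.28.

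Ramp1, the single-pass partner that makes Calcrl a CGRP receptor, had 27.8, 30.4 and 28.2 FPKM in ACD cords 1 to 3, against 22.4, 29.3 and 23.7 FPKM in control cords 1 to 3. All ACD libraries lay above 2 of the controls and the third, control 2, lay between ACD 2 and ACD 3. The difference was 0.20 on the log2 scale with the smallest SE of the 8 genes (0.11, 95% interval -0.05 to 0.46, adjusted p = 0.315 by limma). Without control 2 it was 0.32, with an adjusted p of 0.0756. Ramp1 lies on chromosome 1 at 91179822 to 91225196.

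**Figure D2:**
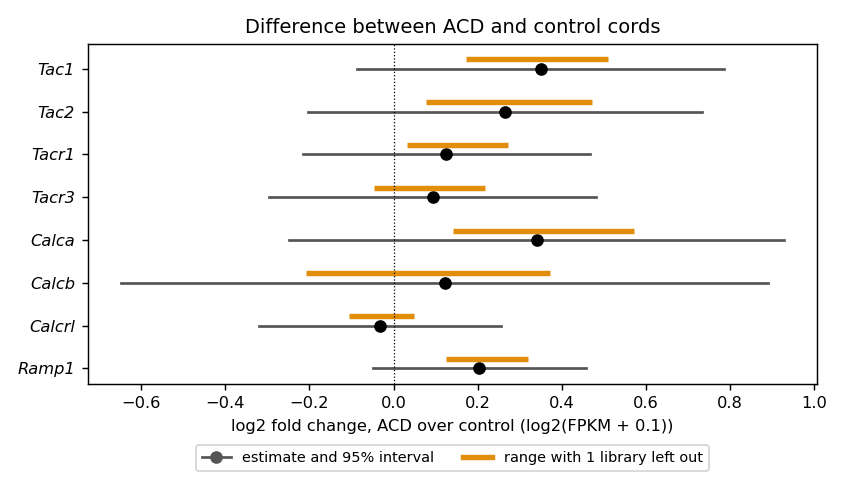
Log2 fold change of ACD over control on the log2(FPKM + 0.1) scale for each of the 8 genes: black points are limma estimates, grey lines their 95% intervals, and orange bars the range of estimates with 1 of the 6 libraries left out. Every grey line crosses 0, and the orange bars of Calcb, Tacr3 and Calcrl cross it too.

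Of the 8 genes 0 passed an adjusted p of 0.05, 0 had an unadjusted p under 0.05 and 0 had groups that did not overlap. The same counts of calls, 0 adjusted and 0 unadjusted, were found with voom on the recovered reads. Over all genes tested 4.34% were called by limma (927 genes, of which 386, or 1.81% of those tested, were higher and 541, or 2.53%, lower in ACD), 22.3% had an unadjusted p under 0.05 and 28.6% had groups that did not overlap. With voom 8.09% were called and 23.2% had an unadjusted p under 0.05. The count of 927 depended on single libraries: it was 274, 287 and 180 without ACD 1, 2 or 3, and 244 and 579 without control 1 or 2. The estimated log2 fold change was above 0 for 7 of the 8 genes, with a median of 0.16, while 48.6% of all genes tested were above 0, with a median of -0.01. After TPM scaling, which set the median of all genes at -0.10, 6 of 8 were above 0 with a median of 0.07.

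The spread between mice was larger than counting error for most of these genes. For Calcb the coefficient of variation was 43.5% in ACD and 29.1% in control cords, against 6.14% and 6.62% from counting reads alone. For Calca it was 26.1% in ACD and 30.1% in control cords, against 3.54% and 4.03% from counting. Tac2 varied by 26.9% in ACD and 12.9% in control cords, and Tac1 by 23.9% and 15.7%. Tacr1 in ACD cords, at 4.92%, varied no more than counting error of 6.00%, but in control cords it varied by 19.2%, against 6.43% from counting. The highest ACD library held 2.25 times the Calcb level of the lowest, and the highest control 1.70 times.

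Calca and Calcb were highest in the same library of each group, and the 4 tachykinin genes shared another order of libraries in the ACD group, within a narrow range for Tacr1 (-0.07, 0.01 and 0.06). Calca was 0.40 above its group mean on the log2 scale in ACD 1 and Calcb 0.66 above, and in control 2 they were 0.46 and 0.45 above. In ACD 1 Tac1, Tac2 and Tacr3 deviated by -0.32, -0.41 and -0.25, and in ACD 3 by 0.35, 0.38 and 0.28. Among the controls these genes did not share an order: control 3 was the lowest for Tac1 (-0.26) and the highest for Tacr3 (0.17).

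Markers of cord neuron classes moved with parts of this spread. The summed list of 8 motor neuron markers was 143, 105 and 93.7 FPKM in ACD 1 to 3 and 82.8, 120 and 131 FPKM in control 1 to 3, so ACD 1 was highest as for Calca and Calcb, while among controls the sum was highest in control 3 and not control 2. Single markers divided: Slc5a7 (17.1, 27.3 and 25.3 FPKM in control 1 to 3), Prph (23.2, 40.0006 and 38.8 FPKM) and Chodl (4.04, 9.19 and 8.13 FPKM) were highest in control 2, and the other 5 in control 3. Hoxc8, a gene picked from the position list, had 38.8, 31.5 and 19.7 FPKM in ACD 1 to 3 and 10.4, 45.9 and 32.7 FPKM in control 1 to 3, the order of Calcb in both groups. The summed position list, Hoxc8 included, did not have that order in either group. It was 118.8, 118.9 and 122.3 FPKM in ACD 1 to 3 and 102.4, 116.3 and 117.0 FPKM in control 1 to 3. The summed list of 7 excitatory dorsal horn markers was 61.8, 70.1 and 78.1 FPKM in ACD 1 to 3, the order of the tachykinin genes, and 73.1, 64.4 and 63.6 FPKM in control 1 to 3. The inhibitory neuron list (168, 171 and 189 FPKM) and the primary sensory list (2.45, 2.71 and 2.83 FPKM) had that order in ACD 1 to 3 too. Among controls the primary sensory sum (3.13, 2.91 and 2.73 FPKM) and the excitatory sum followed the order of Tac1. The inhibitory sum (154, 134 and 185 FPKM) did not. The mean of the primary sensory markers did not follow that order either. It deviated by 0.29, -0.16 and -0.13 on the log2 scale in control 1 to 3, with control 2 the lowest. Isl2 was the largest part of the primary sensory sum in controls. It had 1.21, 1.79 and 1.45 FPKM in control 1 to 3, with control 2 the highest, so that sum depended much on 1 gene. The motor neuron and excitatory lists had 0 genes past an adjusted p or an unadjusted p of 0.05 by limma or voom, with medians of -0.02 and -0.03. The part of these cell types, and of position along the cord, in the spread of the 8 genes was not tested, and these markers were set beside these genes after their values were seen.

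**Figure D3:**
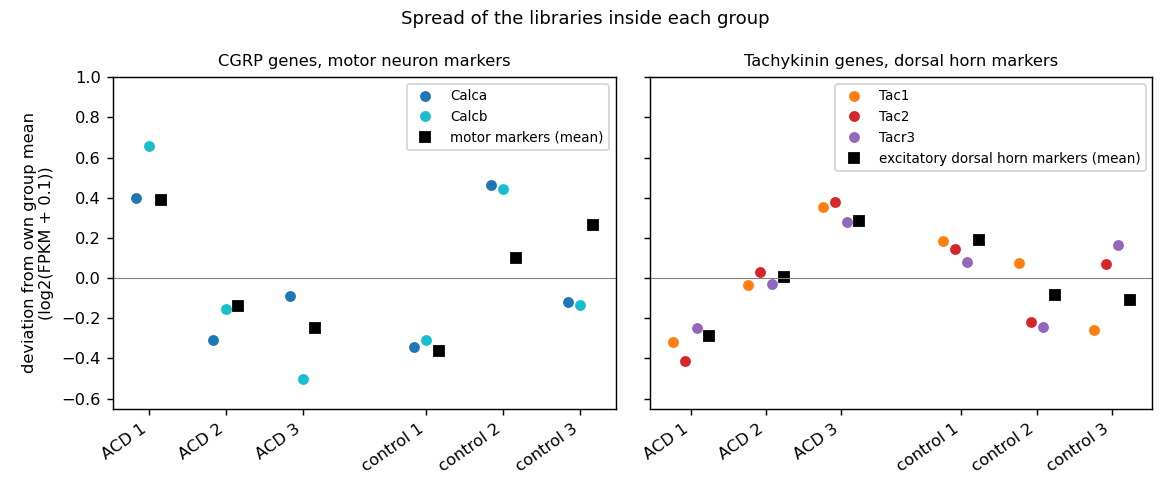
Deviation of each library from its own group mean on the log2(FPKM + 0.1) scale, with ACD libraries left and controls right, for Calca, Calcb and the mean of motor neuron markers (left panel) and for Tac1, Tac2, Tacr3 and the mean of excitatory dorsal horn markers (right panel). ACD 1 is high for both CGRP genes (0.40 and 0.66) and low for the 3 tachykinin genes shown.

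The proportions of related transcripts inside a library also overlapped between the groups. Tac1 made up 38.2% ± 1.33 of the summed FPKM of Tac1 and Tac2 in ACD and 36.9% ± 5.04 in control cords (SD, n = 3). Tacr1 made up 39.8% ± 3.37 of the sum of Tacr1 and Tacr3 in ACD and 39.2% ± 3.88 in control cords. Calca made up 66.2%, 67.8% and 75.8% of the sum of Calca and Calcb in ACD 1 to 3, against 66.4%, 67.1% and 67.1% in control 1 to 3. The 5 libraries other than ACD 3 were thus within a narrow range while the level of both genes differed widely between them. Ramp1 was 11.0 ± 0.956 times as abundant as Calcrl in ACD and 9.40 ± 1.79 times in control cords.

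Ramp2 and Ramp3, which turn Calcrl into adrenomedullin receptors, were far lower than Ramp1. Ramp2 was at 5.77 ± 0.483 FPKM in ACD and 4.82 ± 0.979 in control cords (0.27 on the log2 scale, SE 0.14, adjusted p = 0.323 by limma). Its annotated exons overlap those of Vps25 on the same strand over 33.4% of their length, so its level is uncertain. Ramp3 was at 1.71 ± 0.284 FPKM in ACD and 1.74 ± 0.847 in control cords (0.06, SE 0.31, adjusted p = 0.933 by limma). Ramp1 was 79.4% ± 1.21 of the summed Ramp transcripts in ACD and 79.2% ± 6.15 in control cords.

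Of the other family members, Crcp, a small protein coupled to CGRP receptor signalling, was at 14.1 ± 1.09 FPKM in ACD and 14.1 ± 1.05 in control cords (-0.00 on the log2 scale, SE 0.09, adjusted p = 0.999 by limma). Adm, the adrenomedullin precursor, was at 2.07 ± 0.701 FPKM in ACD and 1.92 ± 0.274 in control cords (0.06, SE 0.23, adjusted p = 0.905 by limma). The rest had few reads. Tac4, the hemokinin precursor, had 0, 2 and 2 reads in ACD 1 to 3 and 0 in every control, where 0 reads, with a limit of 3, allow 0.129 to 0.142 FPKM for counting error alone. Tacr2, the neurokinin A receptor, had 4, 6 and 6 reads in ACD 1 to 3 and 1, 2 and 5 reads in control 1 to 3. Calcr, the calcitonin receptor, was at 0.212 ± 0.131 FPKM in ACD and 0.161 ± 0.0866 in control cords on 6 to 26 reads (0.23 on the log2 scale, SE 0.43, adjusted p = 0.788 by limma). Of the 9 remaining family genes 5 could be tested and 0 passed, 0 with an unadjusted p under 0.05 by limma or voom, with a median of 0.06 that became -0.03 after TPM scaling.

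Of the genes that process or degrade these peptides all 13 were tested, 0 passed by limma and 5 had an unadjusted p under 0.05, and with voom 2 passed and 5 had an unadjusted p under 0.05. The smallest p was that of Scg2, the precursor secretogranin of dense-core vesicles, with 141, 158 and 172 FPKM in ACD 1 to 3 and 121, 122 and 111 FPKM in control 1 to 3, which did not overlap (0.41 on the log2 scale, SE 0.09, adjusted p = 0.0502 by limma). Cpe, the carboxypeptidase that trims peptide precursors, was at 546 ± 27.0 FPKM in ACD and 437 ± 15.9 in control cords, without overlap (0.32, SE 0.07, adjusted p = 0.0525 by limma). With voom the adjusted p of Scg2 was 0.0256 and that of Cpe 0.0337. Cpe is named beside Scg2 after its value was seen. The enzymes that cut and amidate tachykinins and CGRP, Pcsk1 (0.14, adjusted p = 0.552), Pcsk2 (0.05, adjusted p = 0.768) and Pam (0.15, adjusted p = 0.414), did not pass by limma, nor did Mme, the peptidase neprilysin that degrades substance P (0.20, adjusted p = 0.596); these 4 too were chosen after their values were seen. The list median was 0.14, and 0.05 after TPM scaling.

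Among 20 genes that couple the receptors to the cell 0 passed by limma and 1 had an unadjusted p under 0.05, and with voom 1 passed and 2 had an unadjusted p under 0.05. The smallest p was that of Grk3, a kinase that marks active receptors for uptake, with 4.96, 5.58 and 5.61 FPKM in ACD 1 to 3 and 7.92, 6.71 and 7.03 FPKM in control 1 to 3, which did not overlap (-0.42, SE 0.09, adjusted p = 0.0529 by limma and 0.00866 with voom). The list median was 0.07 and became -0.03 after TPM scaling.

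Of 15 other peptides and receptors of itch and pain 14 were tested and 1 passed, Pdyn, the dynorphin precursor. Pdyn had 6.07, 6.74 and 7.18 FPKM in ACD 1 to 3 and 4.44, 3.77 and 3.81 FPKM in control 1 to 3, so it rose with no overlap (0.72, SE 0.10, adjusted p = 0.0169 by limma). By limma 4 of the 14 had an unadjusted p under 0.05, and with voom, which could be run on 11 of them and not on Gal, 1 passed and 1 had an unadjusted p under 0.05. The adjusted p of Pdyn by limma was 0.0602 without ACD 2 and 0.0702 without ACD 3. The list median was 0.26, and 0.18 after TPM scaling. ACD 1 was the lowest ACD library for Sst (somatostatin), Penk (the enkephalin precursor), Gal (galanin) and Adcyap1 (the precursor of the peptide PACAP) as well as for Tac1 and Tac2, at 95.6, 72.4, 6.15 and 10.4 FPKM, a set chosen after its values were seen. Most of this list shared that trait. ACD 1 was also the lowest for Grp, Grpr, Nmb, Npy, Pdyn, Nts and Cck, but not for Nmbr, Npr1 and Vip.

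**Figure D4:**
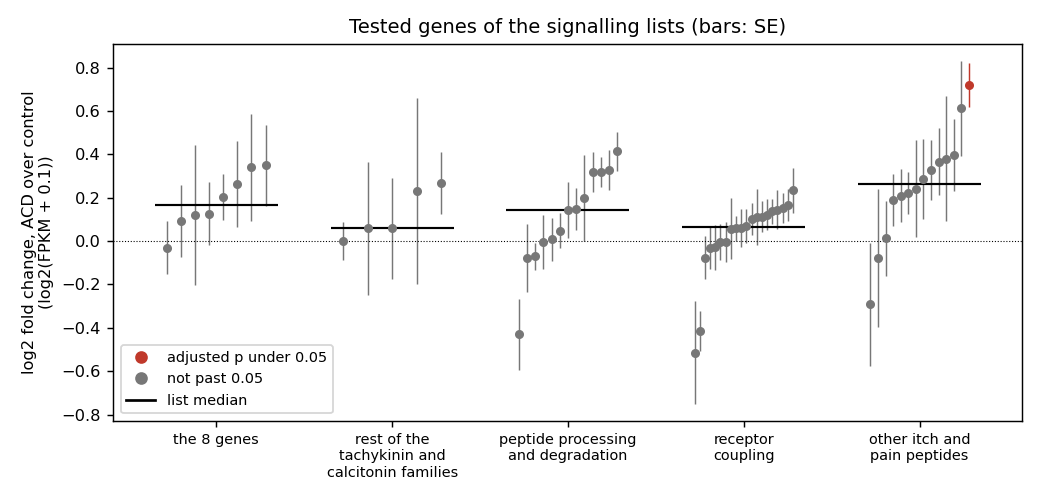
Log2 fold change of ACD over control (log2(FPKM + 0.1)) with its SE for the tested genes of each list, sorted within the list, with black lines at the list medians. Pdyn, in red at 0.72, is the 1 gene past an adjusted p of 0.05, and the medians run from 0.06 to 0.26.

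The genes whose pattern over the 6 libraries was most like that of Tac1, Calca and Calcrl were searched among 7224 named protein-coding genes averaging 5 FPKM or more, after the group means were removed. Ctxn1, Syt5 and Snx11 were closest to Tac1 (Pearson r of 0.997, 0.992 and 0.988), Vps26a, Psmg4 and Alg14 to Calca (0.997, 0.992 and 0.992), and Ryk, Ppie and Adipor2 to Calcrl (0.994, 0.990 and 0.989). These are the highest of many values over few libraries and are given as a description.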

How the data were processed

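The build mm10 and the tools DESeq2 1.16.1, HISAT2 2.0.5 and featureCounts 1.5.0-p3 are named, with no role stated, per the submitters' processing notes. The sources used here give no library kit, strand setting or annotation release. The authors deposited FPKM, 1 table per library. Scaled by exon length (GENCODE M21) and a library-wide read total, they came out whole to within 0.05 for 96.9% of values above 0 and for all values of the 8 genes; those totals are the depths given. Intervals cover the spread between samples; counting errors cover counting alone.

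ACD was compared with control by limma 3.58.1 in R 4.3.3 (trend and robust settings) on log2(FPKM + 0.1), which understates the change of low genes, keeping genes that averaged 0.1 FPKM or more, with Benjamini-Hochberg adjustment over all 21369 genes and a threshold of 0.05. Data were simulated for this comparison (20154 genes, dispersion 0.00407). Of genes changed 1.5-fold 55% were recovered and of those changed 2-fold 91%, with 17 false calls. That dispersion was the median over the genes with more reads. Calca, Calcb, Tac1, Tac2 and Tacr3 spread more than that. So did Tacr1 and Ramp1 in control cords, at 19.2% and 14.7%, against 6.43% and 2.73% from counting. These rates are therefore not taken to describe the 8 genes. Alternatives were other pseudocounts, filters and scalings, voom, the replicate block and leaving out each library. The 8 genes, the pathway and marker lists and the genes to be named (the 8 genes, the passing or lowest-p gene of each list, family members, and the 3 genes most alike in pattern) were chosen with earlier results of these data known.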

Additional observations from a re-analysis of the deposited data

How the results depend on the processing

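The count of called members was 0 under all 16 alternatives, and the lowest adjusted p of a member was 0.0756 (Ramp1 without control 2). Of 80 member values under the 10 alternatives other than leaving out a library, 78 kept their sign. The exceptions were Tacr3 at -0.0016 after TPM scaling and Calcrl at 0.15 with length and GC trends removed; the cause was not tested. With 1 library left out, Tacr3 ranged from -0.047 to 0.22, Calcb from -0.21 to 0.37 and Calcrl from -0.10 to 0.0497. The number of genes called over all genes was 556 without a filter on low values, 420 by limma without trend and robust settings, 1663 with voom, 181 with the replicate block and 180 to 627 with 1 library left out, against 927. Of these calls 41.6% were higher in ACD, against 22.8% after TPM scaling, 26.3% with voom and 65.1% with length and GC trends removed. Peptide processing genes called numbered 2 (Scg2 and Cpe) with a minimum mean of 1 FPKM, with median scaling, with length and GC trends removed and with voom, and 0 under every other alternative run. Receptor coupling genes called numbered 1 (Grk3) with that minimum, that trend removed and voom. Other itch and pain peptides called numbered 0 with the replicate block, where Pdyn had an adjusted p of 0.0676, and 0 to 2 with a library left out, the second being Gal without ACD 1. Same-numbered libraries did not deviate together (correlations of -0.028, 0.015 and 0.0035 across genes). Libraries of different numbers had correlations of -0.032 to 0.026. These values show no pairing of the mice by number, but with 3 libraries per group they cannot exclude one. The values rest on 170 to 1862 reads. For Calca and Calcb the spread between 3 mice, more than depth, set what could be seen, and their intervals reach 1.90-fold and 1.85-fold. For Tacr1 in ACD cords counting error (6.00%) was as large as the spread (4.92%), but in control cords the spread (19.2%) was larger than counting error (6.43%).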
